A study of Mus musculus with 8 samples.

Results

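The miR-30 family was followed through both arms of its hairpins in exosomes of mouse amniotic fluid. Its members were taken by name, as the 8 arms mmu-miR-30a-5p, mmu-miR-30b-5p, mmu-miR-30c-5p, mmu-miR-30d-5p, mmu-miR-30e-5p, mmu-miR-30a-3p, mmu-miR-30d-3p and mmu-miR-30e-3p (written without the prefix mmu, for mouse, from here on), out of 1881 mouse miRNAs on the array. The rule rests on names alone, and all 8 have probes on each array. Exosomes, small membrane vesicles that cells release, were profiled on 8 single-colour Agilent miRNA arrays, 1 per sample. In 4 of the samples the fluid came from mice that delivered preterm about 48 h after an intraperitoneal dose of lipopolysaccharide (LPS, a bacterial outer membrane component that sets off inflammation) of 100 μg per kg on day 14 of pregnancy. In the other 4 it came from cesarean sections, and whether these mice had an injection is not stated. The labels give no strain or genotype and put all 8 samples at day 17 of pregnancy, which does not settle whether the groups had the same gestational age. The labels do not say that replicates are separate animals, so the p-values speak only of the spread among these samples, which may be technical. The comparison asks which members differ between LPS-induced preterm birth and cesarean section.

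A miRNA hairpin is cut into a 5p and a 3p strand, and the strand that is loaded into an Argonaute protein finds its target mRNAs mainly by pairing of its seed, a short stretch near the 5′ end. The 5p strands of the miR-30 family share 1 seed and are known for holding epithelial cells in a differentiated state, in part by repressing Snai1, a transcription factor that drives the change from epithelium to mesenchyme. They are abundant in kidney epithelium, and fetal urine is a main source of amniotic fluid. The 3p strands carry other seeds and are usually the less abundant product.

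Mature sequences of 5 of the 8 members matched by name in the RefSeq table (GRCm38.p6). The 5p strands are shown because their shared seed, bases 2 to 8, in capitals, defines the family and because the bases after it are what the array probes tell apart. miR-384-5p, from a separate hairpin, is shown as the miRNA outside the family with the same seed. miR-30b-5p, miR-30d-5p and miR-30d-3p are the other members.
miR-30a-5p: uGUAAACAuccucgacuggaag
miR-30e-5p: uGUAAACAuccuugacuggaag
miR-30c-5p: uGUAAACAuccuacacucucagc
miR-384-5p: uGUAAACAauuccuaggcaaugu

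All 4 strands shown carry the seed GUAAACA. Counted from 1 at the 5′ end, miR-30e-5p differs from miR-30a-5p by the single substitution C13U, so the pair have the same seed and the same bases on both sides of that position. miR-30c-5p differs from miR-30a-5p at 5 of the first 22 bases, all between positions 13 and 20.

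The 3p strands fall into 2 seed groups, shown in the same way with bases 2 to 8 in capitals. The strands of the miR-30c hairpins are not members but are given beside them as the remaining arms with a sequence.
miR-30a-3p: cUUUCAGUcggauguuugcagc
miR-30e-3p: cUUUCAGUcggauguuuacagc
miR-30c-1-3p: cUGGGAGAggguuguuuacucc
miR-30c-2-3p: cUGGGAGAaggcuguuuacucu

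miR-30a-3p and miR-30e-3p share the seed UUUCAGU and differ by G18A. miR-30c-1-3p and miR-30c-2-3p share the seed UGGGAGA.

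The array reads the 3′ part of a miRNA, and the brightest probe of each stood for it here. The probes of miR-30a-5p and miR-30e-5p, shown because a single base (in capitals) separates them, are each 17 bases long and pair with bases 6 to 22.
miR-30a-5p probe: cttccagtcGaggatgt
miR-30e-5p probe: cttccagtcAaggatgt

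Lined up from their 5′ ends, the 14-base probe of miR-30d-5p had 1 mismatch to that of miR-30a-5p and 2 to that of miR-30e-5p. How much of a probe's signal came from a relative of its miRNA was not tested. On the build mm9 used by the files, the miR-30a-5p probe is placed on chromosome 1, plus strand, at 23279119 to 23279134, and that of miR-30a-3p at 23279160 to 23279175. The miR-30e-5p probe is placed on chromosome 4, minus strand, at 120445233 to 120445248, and that of miR-30e-3p at 120445274 to 120445290. The miR-30b-5p probe (68169003 to 68169018) and the miR-30d-5p probe (68172790 to 68172802) are neighbours on the minus strand of chromosome 15. All placements here are as deposited, and some span a base fewer than the probe is long. The miR-30c-5p probe matches chromosome 1 at 23298558 to 23298575 and chromosome 4 at 120442160 to 120442177, and the products of its hairpins cannot be separated on this array. In the RefSeq gene table (GRCm38.p6), Mir30e and Mir30c-1 lie within the interval of the protein-coding gene Nfyc, a subunit of the transcription factor NF-Y, while no other gene of the table holds Mir30a, Mir30c-2, Mir30b or Mir30d. Whether the Nfyc pair is exonic or intronic was not looked up.

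Between 405 and 554 miRNAs were well above background on an array, and the 75th percentile of the signal, used to scale the arrays, lay between 7.72 and 8.81 on the log2 scale. Levels below are log2 values of scaled probe intensity with a floor of 3.75, and differences are LPS minus cesarean on that scale. Levels of different probes are not compared, since probes differ in how brightly they bind. A single slide held them all, LPS in its first row and cesarean in its second, so slide row and group cannot be told apart. The number of arrays, 4 per group, limits the precision.

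All 5 5p members were well above background on all 8 arrays. The 3p arms were dim. miR-30a-3p was well above background on all 4 cesarean and on 3 LPS arrays, miR-30e-3p on 2 cesarean arrays and 1 LPS array, and miR-30d-3p on none of the 8. Testing required a reading well above background on 3 or more arrays in LPS or in cesarean samples, which 6 of the 8 members and 470 of all 1881 miRNAs met. Each of the 6 met this in both groups. miR-30e-3p and miR-30d-3p were not tested. Of the remaining arms, miR-30c-1-3p (8 arrays) and miR-30c-2-3p (all 4 cesarean and 3 LPS arrays) were tested, and miR-30b-3p was well above background on 0 of 8 arrays, as was miR-384-5p.

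None of the 6 tested members passed as higher or lower in exosomes of LPS-induced preterm birth. The test was limma with a Benjamini-Hochberg adjusted p of 0.05 over all 470 miRNAs, of which 4.89% passed. At that share, none passing out of 6 does not set the family apart or show that its members were unchanged. At an unadjusted p of 0.05, 1 of the 6 passed, miR-30d-5p, against 24.9% of all tested miRNAs. The LPS and cesarean arrays overlapped for all 6, while 17% of all tested miRNAs had groups that did not overlap. The mean level was higher on LPS arrays for 5 of the 5 5p members and for 45.5% of all tested miRNAs. The median difference of the 5p members was 0.32 against -0.057 over all tested miRNAs. It was 0.13 without LPS array 3, 0.14 without cesarean array 3, 0.47 without cesarean array 2 and 0.18 with normexp background correction. For these bulk vesicle samples, fewer vesicles of a given source and less miRNA per vesicle cannot be told apart.

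**Figure D1:**
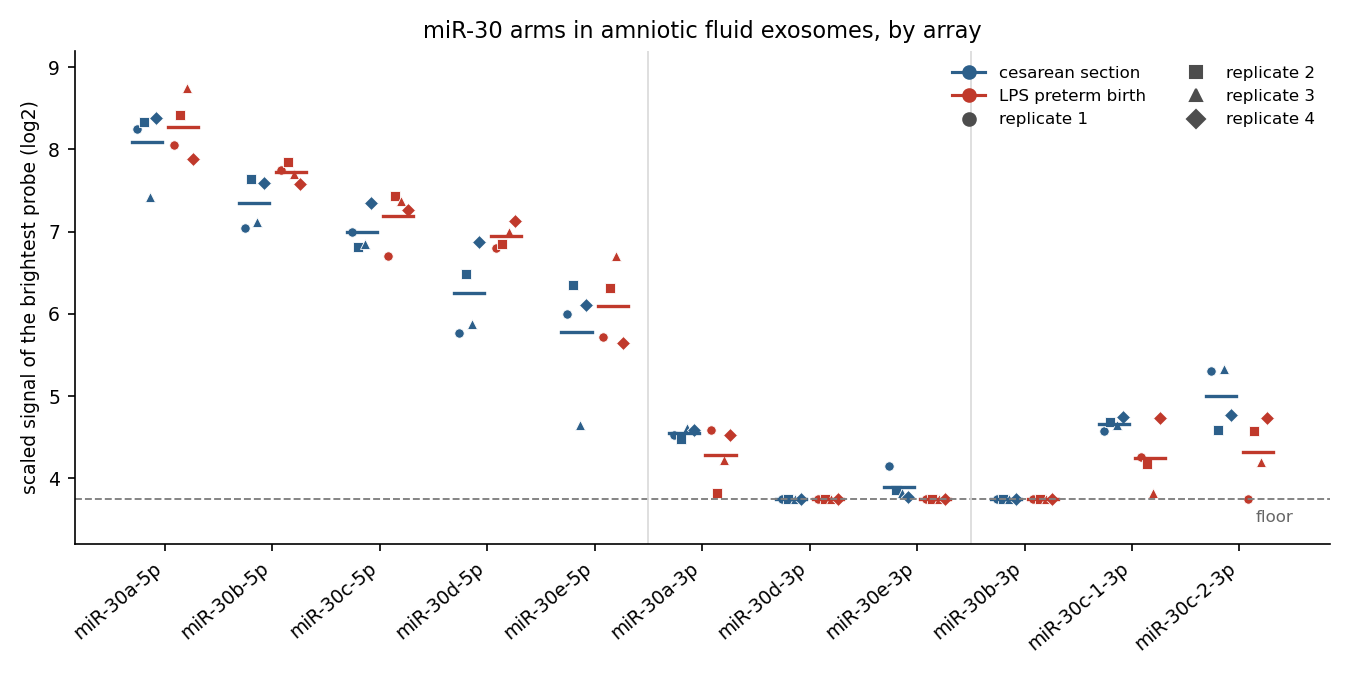
Scaled signal of the brightest probe (log2, vertical axis) of each miR-30 arm (horizontal axis) on the 4 cesarean arrays (blue) and the 4 LPS arrays (red); each point is an array, its shape the replicate number, which pairs no samples, and each bar a group mean. The 5p members lie above the floor of 3.75 (dashed) on every array, while miR-30d-3p and miR-30b-3p sit on it throughout.

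miR-30d-5p had the largest difference of the 6 tested members. It was at 6.81, 6.85, 6.99 and 7.13 on LPS arrays 1 to 4, and at 5.77, 6.49, 5.88 and 6.88 on cesarean arrays 1 to 4. The LPS arrays lay close together, and cesarean array 4 reached into their range while cesarean arrays 1 and 3 stood about 1 log2 unit lower. The group means were 6.94 ± 0.15 and 6.25 ± 0.52 (SD, n = 4 each). The difference was 0.69 (95% interval 0.063 to 1.32), or 1.61-fold, with an unadjusted limma p of 0.0342 and an adjusted p of 0.166, so it did not pass. By absolute difference it ranked 135th of the 470 tested miRNAs. Its shorter probe, of 13 bases, differed by 0.71, a value that reads the same RNA in the same samples.

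miR-30b-5p, from the neighbouring hairpin on chromosome 15, was at 7.75, 7.85, 7.71 and 7.58 on LPS arrays 1 to 4 and at 7.05, 7.64, 7.12 and 7.60 on cesarean arrays 1 to 4. As for miR-30d-5p, cesarean arrays 1 and 3 were the lowest, and cesarean arrays 2 and 4 lay within the LPS range. The means were 7.72 ± 0.11 and 7.35 ± 0.31 (SD, n = 4 each), and the difference of 0.37 (95% interval -0.14 to 0.88) did not pass (limma adjusted p = 0.341).

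miR-30a-5p, whose targets include the autophagy gene Becn1, was at 8.05, 8.42, 8.75 and 7.89 on LPS arrays 1 to 4 and at 8.24, 8.34, 7.42 and 8.38 on cesarean arrays 1 to 4. Cesarean array 3 was low and the other 3 cesarean arrays lay inside the LPS range. The means were 8.28 ± 0.38 and 8.09 ± 0.46 (SD, n = 4 each), with a difference of 0.18 (95% interval -0.48 to 0.84; limma adjusted p = 0.754).

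miR-30e-5p, the near twin of miR-30a-5p, was at 5.72, 6.31, 6.70 and 5.65 on LPS arrays 1 to 4 and at 5.99, 6.36, 4.64 and 6.11 on cesarean arrays 1 to 4. It had the widest spread of the 5, again with cesarean array 3 lowest and LPS array 3 highest. The means were 6.10 ± 0.50 and 5.78 ± 0.77 (SD, n = 4 each), and the difference was 0.32 (95% interval -0.57 to 1.21; limma adjusted p = 0.670). Cesarean array 3 set the sign of this difference and of that of miR-30a-5p. Without it, miR-30e-5p differed by -0.058 and miR-30a-5p by -0.045, and 3 of the 5 5p members were higher on LPS arrays. That array had 413 miRNAs well above background, near the low end of the 405 to 554 over all arrays. Its 75th percentile of 7.74 was likewise near the low end of 7.72 to 8.81.

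miR-30c-5p, the product of hairpins on chromosomes 1 and 4, was at 6.71, 7.44, 7.38 and 7.26 on LPS arrays 1 to 4 and at 6.99, 6.81, 6.85 and 7.35 on cesarean arrays 1 to 4. LPS array 1 was the lowest of all 8, and the groups overlapped over most of their range. The means were 7.19 ± 0.33 and 7.0 ± 0.24 (SD, n = 4 each), and the difference was 0.19 (95% interval -0.36 to 0.74; limma adjusted p = 0.675). It was 0.36 without LPS array 1 and 0.11 without LPS array 2, and 0.047 without scaling between arrays. The intervals of the 5p members, not adjusted for the number of miRNAs tested, leave room for either sign in every case but miR-30d-5p. For miR-30d-5p the adjusted test did not pass (limma adjusted p = 0.166), so its sign is not settled either.

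**Figure D2:**
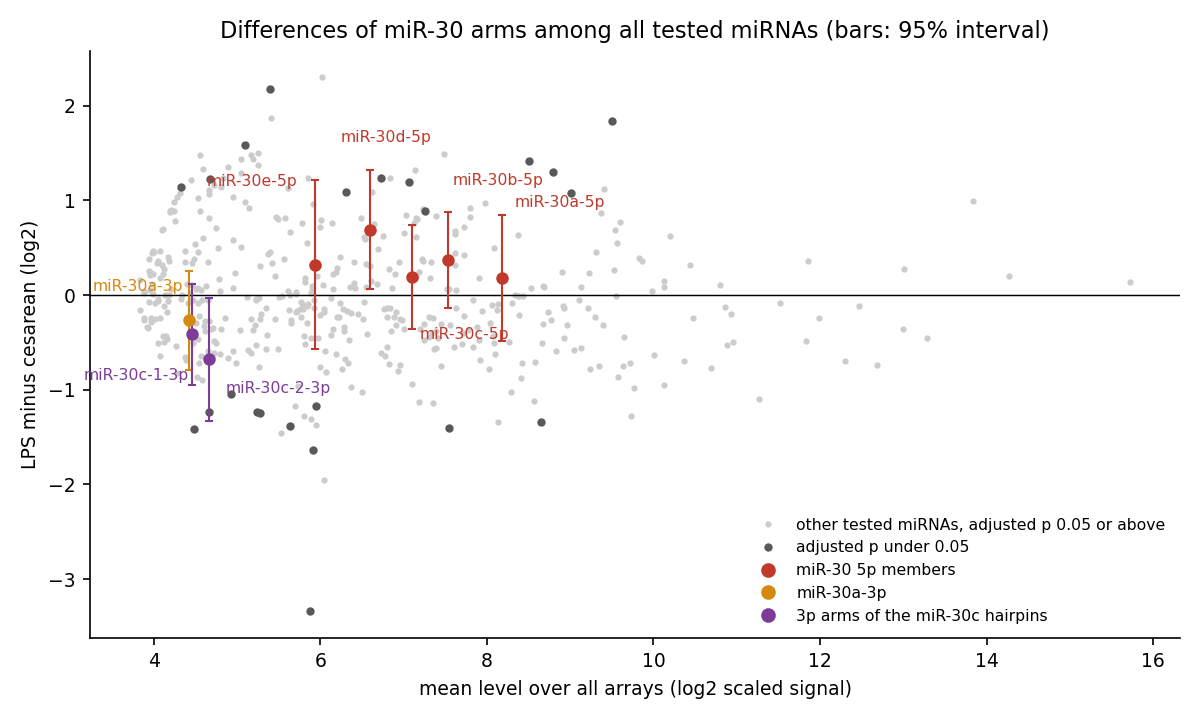
Difference between the groups (LPS minus cesarean, log2, vertical axis) against the mean level over all 8 arrays (log2, horizontal axis) for the 470 tested miRNAs, with the miR-30 arms in colour and their 95% intervals as bars. The 5 5p members lie between 0.18 and 0.69 and the 3 tested 3p arms between -0.68 and -0.27, all among miRNAs that did not pass.

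The tested 3p arms had lower means on LPS arrays. miR-30a-3p was at 4.59, 3.82, 4.22 and 4.52 on LPS arrays 1 to 4 and at 4.53, 4.48, 4.62 and 4.58 on cesarean arrays 1 to 4. LPS arrays 2 and 3 were below every cesarean array, and LPS arrays 1 and 4 were not. Its difference was -0.27 (95% interval -0.79 to 0.25; limma adjusted p = 0.513), and -0.11 without LPS array 2.

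miR-30e-3p, which shares the miR-30a-3p seed, was at 4.15, 3.85, 3.82 and 3.78 on cesarean arrays 1 to 4 and at the floor of 3.75 on every LPS array. At this signal no difference could be measured, and the same holds for miR-30d-3p, at the floor on all 8 arrays.

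The arms of the miR-30c hairpins also had lower means on LPS arrays. miR-30c-2-3p was at the floor of 3.75 on LPS array 1 and at 4.58, 4.20 and 4.74 on LPS arrays 2 to 4, against 5.31, 4.58, 5.32 and 4.77 on cesarean arrays 1 to 4. Its difference was -0.68 (95% interval -1.33 to -0.029) with an unadjusted limma p of 0.0421 and an adjusted p of 0.180. miR-30c-1-3p differed by -0.41 (95% interval -0.95 to 0.12; adjusted p = 0.306), with LPS arrays 1 to 4 at 4.26, 4.17, 3.82 and 4.74 and cesarean arrays at 4.57 to 4.75. Both miR-30c arms overlapped between the groups, and each was read by only 1 probe above background.

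These 3p differences moved with the processing. As the mean over detected probes miR-30a-3p differed by -0.15. For the miR-30c arms this setting could change nothing, since the only probe of each above background is the one used throughout. Their values stayed at -0.41 for miR-30c-1-3p and -0.68 for miR-30c-2-3p. In the per-miRNA total of the scanner software, which adds up all probes of a miRNA, the differences turned positive. They were 0.64 for miR-30a-3p, 0.36 for miR-30c-1-3p and 0.25 for miR-30c-2-3p. With a floor 2 times as high, all 8 arrays of miR-30a-3p and of miR-30c-1-3p lay at the floor and their differences were 0. With normexp background correction the 3 differences were -0.011, -0.019 and -0.091. No 3p arm passed the test under any of these.

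**Figure D3:**
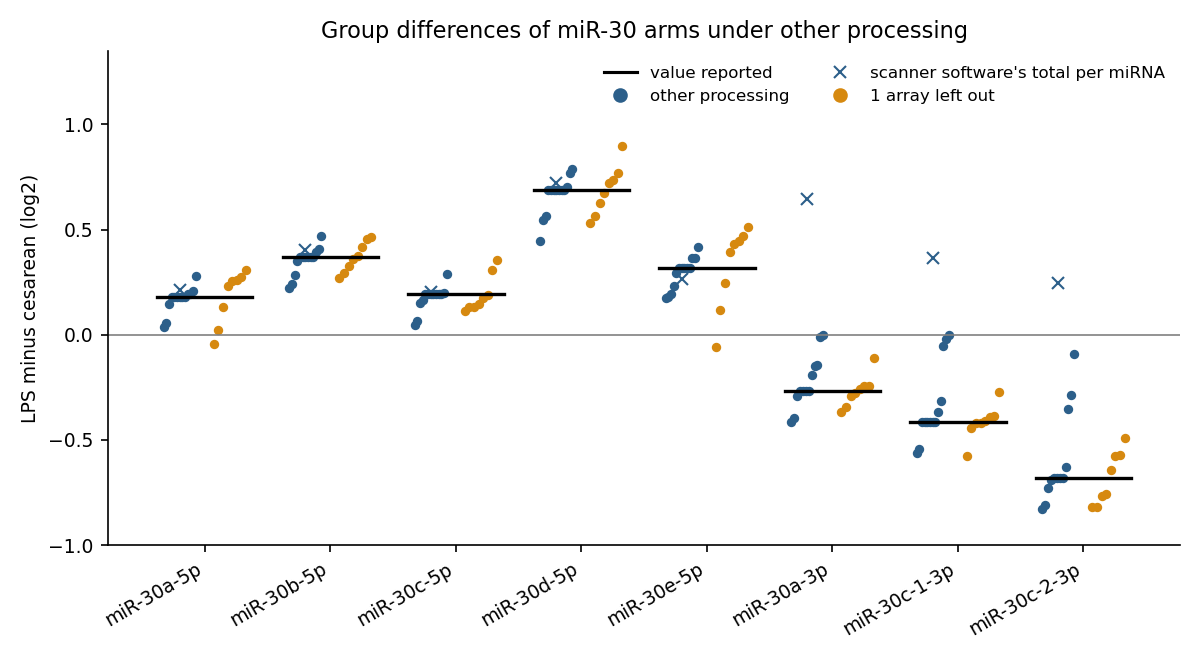
Difference between the groups (LPS minus cesarean, log2, vertical axis) of each tested miR-30 arm as reported (black bar), under other processing (blue) and with 1 array left out (orange). The 5p members stay above 0 except miR-30a-5p and miR-30e-5p without cesarean array 3, while the scanner software's total (crosses) turns all 3 of the 3p arms to positive values.

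The balance of the arms of the miR-30a hairpin was set against that of other hairpins, as the level of the 5p arm minus that of the 3p arm on the same array. This was possible for 25 hairpins with both arms tested, and miR-30a was the single miR-30 hairpin among them. Its size depends on how brightly each probe binds, so only its change between arrays is read. The arm difference of miR-30a was 3.46, 4.60, 4.53 and 3.37 on LPS arrays 1 to 4 and 3.72, 3.86, 2.80 and 3.79 on cesarean arrays 1 to 4. LPS arrays 2 and 3 lay above every cesarean array, cesarean array 3 lay below all others, and the rest were mixed. The group difference was 0.45 (95% interval -0.42 to 1.32) and did not pass (limma adjusted p = 0.396 over the 25 hairpins). Of the 25, 16% passed, 32% had an unadjusted p under 0.05 and 52% had a higher arm difference on LPS arrays. The value for miR-30a was 0.20 without cesarean array 3, 0.24 without LPS array 2, 0.27 without LPS array 3 and 0.65 without LPS array 4. It was 0.16 with normexp, 0.18 with the doubled floor and -0.43 by the scanner software's total.

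**Figure D4:**
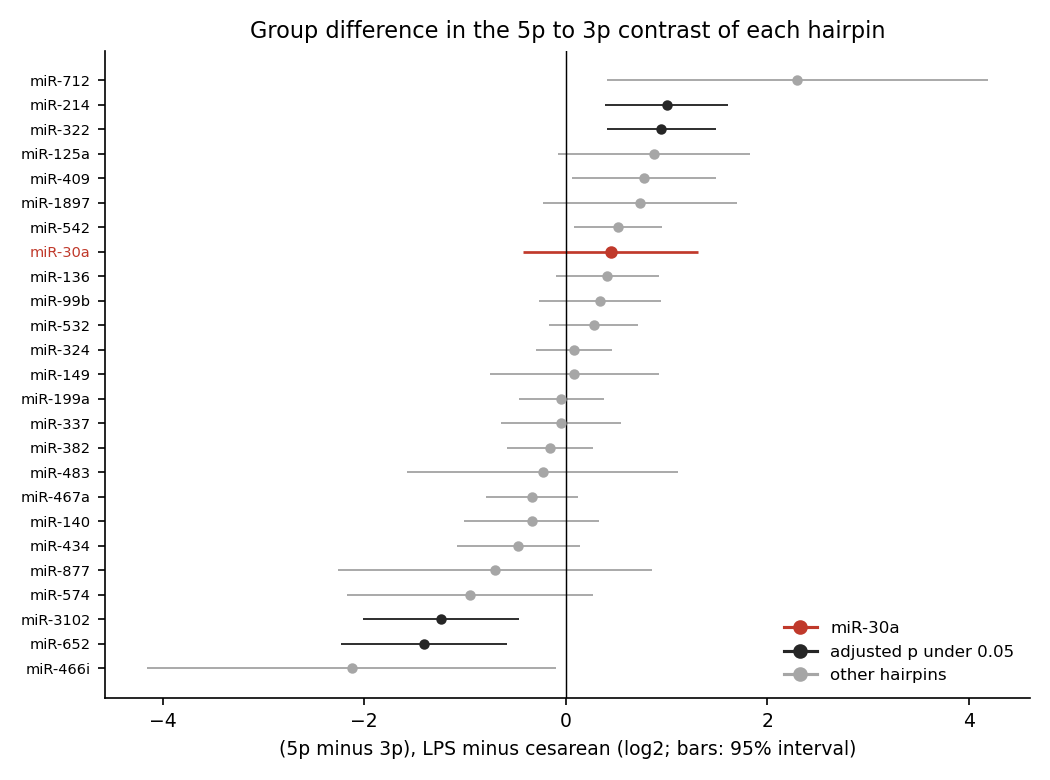
Difference between the groups (LPS minus cesarean) in the level of the 5p arm minus the 3p arm (log2, horizontal axis, with 95% intervals) for the 25 hairpins with both arms tested (vertical axis). miR-30a (red) lies at 0.45 with an interval that spans 0, and the 4 hairpins that passed are in black.

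Whether the 5p members differed from one another in their group difference was tested in the 10 pairs they form. The test took the difference between their levels on each array, with the 70 allocations of the arrays enumerated in a two-sided exact permutation test. The smallest p this design can give is 0.0286, so that after adjustment over the 10 pairs none could pass unless at least 6 of them reached it. None of the 10 pairs had an unadjusted p under 0.05. The lowest adjusted exact p, 0.571, belonged to the 3 pairs of miR-30d-5p with miR-30a-5p, miR-30c-5p and miR-30b-5p. The group differences of these 3, each minus that of miR-30d-5p, gave -0.51, -0.50 and -0.32. For the miR-30b-5p and miR-30d-5p pair, the gap in level was 0.95, 1.0, 0.72 and 0.44 on LPS arrays 1 to 4 and 1.28, 1.15, 1.24 and 0.72 on cesarean arrays 1 to 4. The gap was smaller on most LPS arrays, but cesarean array 4 lay among them (exact unadjusted p = 0.114). This does not show that the group differences of the 5p members were equal.

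Across the 8 arrays, miR-30a-5p and miR-30e-5p varied together. Their Pearson r was 0.98 (permutation p = 0.000149, adjusted over the 10 pairs 0.00149) and Spearman's rho 0.93 (permutation p = 0.00223, adjusted 0.0223; n = 8 arrays). The r was 0.98 with group means removed and 0.93 without LPS array 3 and cesarean array 3, the arrays farthest from the median of miR-30a-5p. As given above, their probes differ by 1 base in 17, and the part of this in the correlation was not tested.

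miR-30b-5p and miR-30d-5p, the chromosome 15 neighbours, had an r of 0.88 (permutation p = 0.0216, adjusted 0.108) and a rho of 0.38 (permutation p = 0.360, adjusted 0.514; n = 8 arrays). Without cesarean arrays 1 and 3, which were low for both, r was -0.15, so this relation rests on those arrays. The other 8 pairs had r from 0.36 to 0.59, with adjusted permutation p from 0.295 to 0.381 (n = 8 arrays). The median r over all pairs of the 338 tested miRNAs that were detected on all arrays was 0.0066. An r as high as in the other 8 pairs was reached by 16.1% to 28.9% of all pairs. For miR-30b-5p and miR-30d-5p this share was 2.41%, and for miR-30a-5p and miR-30e-5p 0.074%. All these values share the scaling of the arrays. Without scaling, the 10 pairs had r from 0.69 to 0.99, with no value over all pairs set beside them.

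**Figure D5:**
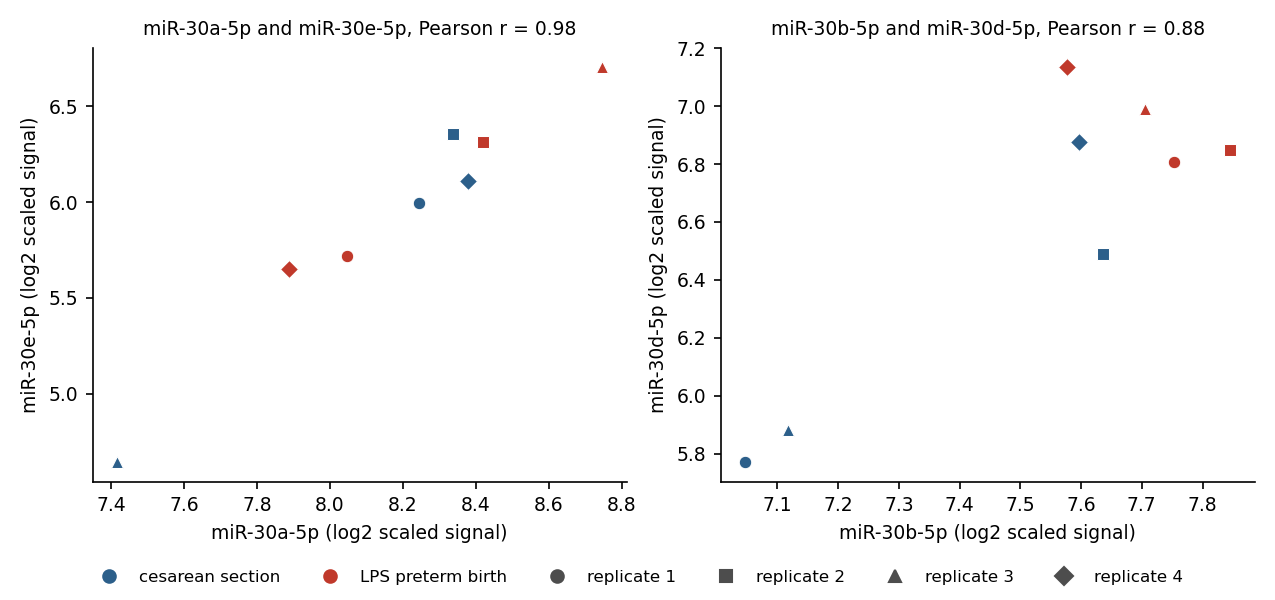
Level of miR-30e-5p against miR-30a-5p (left) and of miR-30d-5p against miR-30b-5p (right), both axes in log2 scaled signal; each point is an array, coloured by group, with the replicate number as shape. The left pair follows 1 line over all 8 arrays (r = 0.98), while the right pair (r = 0.88) is spread by cesarean replicates 1 and 3 at the lower left.

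The mean of the 5 5p members, each centred on its own mean over the arrays, was -0.065, 0.30, 0.43 and 0.031 on LPS arrays 1 to 4 and -0.26, 0.056, -0.69 and 0.19 on cesarean arrays 1 to 4. Cesarean array 3 was the lowest and LPS array 3 the highest, and the rest of the groups overlapped. By the rule of highest Pearson r with this mean over the 8 arrays, the 5 most alike of 332 other miRNAs detected on all arrays were miR-185-5p (r = 0.95), miR-500-3p (0.93), miR-410-3p (0.92), miR-376a-3p (0.92) and miR-21a-5p (0.91). None of these 5 passed the test between the groups, with differences from 0.36 for miR-21a-5p to 0.75 for miR-376a-3p and adjusted limma p from 0.127 to 0.473.

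Other miRNAs linked to the epithelial state and to differentiation, a list of 23 made up of the miR-200, miR-34, let-7, miR-26, miR-101, miR-192, miR-194 and miR-215 groups with miR-203 and miR-205, were counted in the same fit. Of its 20 tested members, 5 rose on LPS arrays, 0 fell and 15 did not pass (limma adjusted p of 0.05; 2.55% of all tested miRNAs passed as higher and 2.34% as lower). Its median difference was 0.89, against 0.32 for the 5p members of miR-30, and whether the lists differ was not tested. The 5 that rose became 0 without scaling, with scaling to the spike-in probes, without the filter on dim miRNAs or with the slide column as a block, and 9 with quantile normalization or in the authors' value table. With 1 array left out, between 1 (without cesarean array 3) and 8 (without LPS array 1) passed. The list was chosen with earlier results of these data known and is no independent evidence of its direction.

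Markers of the cells that could shed these vesicles were counted likewise. Epithelial markers rose in 3 of 5, kidney and intestine markers in 2 of 6, red blood cell markers in 1 of 3 and leukocyte markers in 1 of 3 tested, beside the 2.55% of all tested miRNAs that rose. The red blood cell marker that rose, miR-144-3p, was at the floor of 3.75 on every cesarean array. It met the rule for testing through the LPS arrays alone, the group where it was high. The 5 epithelial, kidney and intestine miRNAs that rose are the 5 counted above and were lost under the same settings. The red blood cell marker was lost under the same settings except without the filter, and the leukocyte marker under all of them. Both were also lost with normexp and with the doubled floor. With only miRNAs detected on all arrays neither was tested, since neither was well above background on every cesarean array. The leukocyte marker was further lost with the mean over detected probes and by the scanner software's total. With 1 array left out, no red blood cell marker passed without LPS array 2 or without cesarean array 1, 2 or 3. A leukocyte marker passed only without LPS array 1 or LPS array 4. In the reported fit 0 of 3 skin, 0 of 3 striated muscle, 0 of 1 liver and 0 of 1 tested endothelial and platelet markers passed. No marker in these lists fell. The mean level of the 6 kidney and intestine markers ran from 6.08 to 6.95 on LPS arrays and from 5.44 to 5.78 on cesarean arrays, and that of the 5 epithelial markers from 7.60 to 8.28 and from 6.54 to 7.09. The 3 red blood cell markers ran from 8.78 to 9.38 and from 7.92 to 8.60. On cesarean arrays these means include miR-144-3p, and the kidney and intestine means include miR-215-5p, both at the floor on every cesarean array. The groups overlapped for leukocyte markers (6.13 to 6.73 and 5.90 to 6.21), skin markers (5.90 to 8.31 and 5.72 to 6.75), striated muscle markers (4.88 to 8.49 and 5.90 to 6.80), the liver marker miR-122-5p (5.04 to 9.81 and 3.75 to 7.02) and endothelial and platelet markers (5.87 to 6.14 and 5.81 to 6.40). No marker in these cell lists was below background on all 8 arrays. The part of these sources in the miR-30 levels was not tested.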

How the data were processed

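Exosomes were isolated from amniotic fluid by size-exclusion chromatography and Cy3-labelled from 0.5 μg of RNA with an mRNA amplification kit, per the labels' protocols. The labelling of the miRNAs themselves is unstated there. The intensity values are background-subtracted spot signals that were deposited without normalization between arrays, read by Agilent Feature Extraction 10.7.1.1 per the file headers (9.1 in the submitters' processing notes). The values the authors deposited in a table of all arrays are log2 values of unstated normalization, with column medians of 2.14 to 2.15, and served as an alternative.

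Control spots and spots with outlier marks were left out. Each array was scaled by its 75th percentile of signal among the 618 probes detected on all arrays (a share of at least 0.5 of a probe's spots well above background), raised to a floor of 13.5 (log2 3.75) and put on the log2 scale. The brightest probe stood for each miRNA. The test between groups was limma's (version 3.58.1, R 4.3.3; lmFit and eBayes, two-sided), with Benjamini-Hochberg adjustment over all tested miRNAs, and pairs of members were tested by exact permutation. Tables were read with data.table (version 1.17.8), pandas 2.3.3 and numpy 2.4.6 under Python 3.11.15, and plots drawn with matplotlib 3.10.9.

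The members and lists were chosen with earlier results of these data known. Named are all members, the remaining miR-30 arms, miR-384-5p as the miRNA with the same seed, and the 5 miRNAs most alike. Other miRNAs of the lists and their groups are named only where a result turns on them. Alternatives covered scaling, background, the probe summary, the floor, the filter, the fit and each array left out. The control probes of the spike-in alternative were chosen after their levels were seen.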

Additional observations from a re-analysis of the deposited data

Results flagged for a closer look

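In 3 of the 38 sets of 4 arrays checked, an array stood apart from the other 3 by Dixon's criterion at the 95% level, which chance meets in about 1 of 20 sets. Cesarean replicate 3 read miR-30a-5p at 7.42, against 8.24 to 8.38 on the other cesarean arrays. The same array had an arm difference of miR-30a (5p minus 3p) of 2.80, against 3.72 to 3.86, a value that contains the first. LPS replicate 1 had a gap between miR-30b-5p and miR-30c-5p of 1.05, against 0.32 to 0.41 on the other LPS arrays.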

How the results depend on the processing

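No member passed the test under any alternative run. For pairs of 5p members the exact test can hardly pass after adjustment, so their count of 0 says nothing of stability. The difference of miR-30d-5p ran from 0.45 (normexp) to 0.79 (percentile over all probes), with adjusted limma p from 0.127 to 0.578, and from 0.53 to 0.90 with 1 array left out. The count of 23 called miRNAs was 13 with the percentile over all probes, 1 without scaling, 1 scaled to the spike-in probes, 36 with quantile normalization, 15 with normexp, 8 by the scanner software's total, 15 with miRNAs detected on all arrays, 2 without the filter and 1 when slide column entered as a block, and 3 to 79 with 1 array left out (79 without LPS replicate 1). The count of 4 called hairpins was 0 with the percentile over all probes, the scanner software's total, a floor 0.5 times as high or the slide column as a block, 2 with miRNAs detected on all arrays, without the filter or with eBayes trend and robust, and 0 to 4 with 1 array left out. The cause of these moves was not tested. Reversed by the scanner software's total were miR-30a-3p (0.64), miR-30c-1-3p (0.36), miR-30c-2-3p (0.25) and the arm contrast of miR-30a (-0.43). The pair miR-30a-5p minus miR-30c-5p, -0.012 as reported, turned to 0.00026 (quantile), 0.013 (value table), 0.044 (mean of probes) and 0.0096 (scanner total), and ran from -0.19 to 0.14 with 1 array left out. The pair miR-30b-5p minus miR-30e-5p, 0.051, turned to -0.012 (quantile) and ran from -0.12 to 0.35. With 1 array left out, miR-30a-5p ran from -0.045 to 0.31, miR-30e-5p from -0.058 to 0.51, the pair miR-30a-5p minus miR-30e-5p from -0.25 to 0.013 and miR-30c-5p minus miR-30e-5p from -0.38 to 0.20. Without scaling, the median difference of all miRNAs was -0.20 in place of -0.057, and the 5p median lay 0.37 above it in place of 0.38. That gap was 0.18 with normexp and ran from 0.16 (without LPS replicate 3) to 0.53 (without LPS replicate 4) with 1 array left out. The block by slide column pairs arrays by position alone, and the labels carry no number that links an LPS sample to a cesarean sample. The dim 3p arms, near the floor, limit what their signal can show.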
